A study of Mus musculus with 11 samples.

Results

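The pro-apoptotic target genes of P53 examined in mouse embryoid bodies were Bbc3, Pmaip1, Bax, Fas, Apaf1, Aen, Perp, Eda2r, Tnfrsf10b and Pidd1. They were chosen by name, as 10 of the 21887 protein-coding genes, with earlier results of these data known. The rule itself uses no measured value. A gene was counted as having a P53 or WDR5 peak where a peak lay within 5000 bases of its span in mm10, and an H3K4me3 peak where one lay within 1000 bases of either end of the span. In CUT&RUN, which gave the 11 peak lists, a nuclease tethered to a chromatin-bound antibody releases the DNA beneath it for sequencing. All cells carried a GFP knock-in at Rx. They were differentiated by SFEBq, with 5% KSR in the medium, for 2 days, without doxycycline from day 0 and with 2% matrigel from day 1. Cells were wild type (WT), lacked Wdr5 (Wdr5 knockout, KO), or lacked both Wdr5 and p53 (DKO). P53 and WDR5 were profiled in WT and DKO with 2 lists each, and H3K4me3 in WT, KO and DKO with 1 list each. The sources used here do not give how the genes were removed, what doxycycline controlled or whether a genotype was 1 clone, and peak lists do not measure the deletions. P53 and WDR5 in the KO were not analysed here.

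P53 is a transcription factor that is stabilised by DNA damage and other stresses and then activates genes for cell cycle arrest, repair and cell death. Its death targets act at several steps. Bbc3 and Pmaip1 encode the BH3-only proteins PUMA and NOXA, which free or activate BAX, and BAX permeabilises the outer mitochondrial membrane. Released cytochrome c then assembles APAF1 into the apoptosome, which activates caspase 9. Fas, Tnfrsf10b and Eda2r encode receptors of the TNF receptor superfamily. Perp encodes a plasma membrane and desmosomal protein, Aen an exonuclease of apoptotic nuclei, and Pidd1 a death domain protein of the PIDDosome, a platform for caspase 2. WDR5 is a shared subunit of the MLL and SET1 complexes that place H3K4me3, a mark of active promoters.

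The lists rested on 22.3 M to 57.5 M fragments and held 99 to 9836 peaks. Each value below is the authors' fold enrichment, the fragment pileup at the summit over a background estimated from the same library. Values of different lists are not scaled to each other. Lists 1 and 2 had 80.3% of the list 2 summits in common to the base for WT P53, 77.3% for WT WDR5 and 75.3% for DKO WDR5, so such a pair was read as 1 library. For DKO P53 the share was 10.6%, but its list 2, like the other lists 2, comes from an alignment that its header calls merged. The DKO P53 lists held 99 and 179 peaks in cells labelled as lacking P53, so a call by itself does not show the protein. The labels number these lists as replicates 1 and 2, and for DKO P53 it was not settled whether they are separate libraries. Since no antibody had lists shown to be separate in both genotypes compared, no difference between genotypes was tested. Of markers of the cell types, all 6 of the pluripotent and epiblast genes Pou5f1, Sox2, Utf1, Otx2, Tet1 and Dnmt3b carried H3K4me3 in WT, and none of 4 anterior neural, 1 of 4 fibroblast feeder (Thy1) and none of 4 extraembryonic genes did. The defining anterior neural genes Rax, Six3, Pax6 and Lhx2 were thus without a call. Of all genes, 35.5% carried H3K4me3 at an end in WT, so none or 1 of 4 is not an unusual count.

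P53 in WT was called at 3 of the 10 genes. Bbc3 and Eda2r were called in both lists and Aen in list 1 alone. Of all protein-coding genes, 0.557% had a P53 peak in both WT lists, 0.905% in list 1 and 0.567% in list 2, so 2 and 3 of 10 lay above that background. Among the 14080 genes whose spans were as long as those of the 10 (5209 to 93433 bases), these shares were 0.49% and 0.781%. In DKO, none of the 10 was called in list 1 or in list 2, beside 0.192% and 0.315% of all genes, a background at which 0 of 10 is the usual count. With calls in both WT lists and in neither DKO list, 2 of 10 remained, beside 0.402% of all genes. That Bbc3, Eda2r and Aen had P53 peaks was known from an earlier pass over these lists, so these counts are a description and no test was made.

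**Figure D1:**
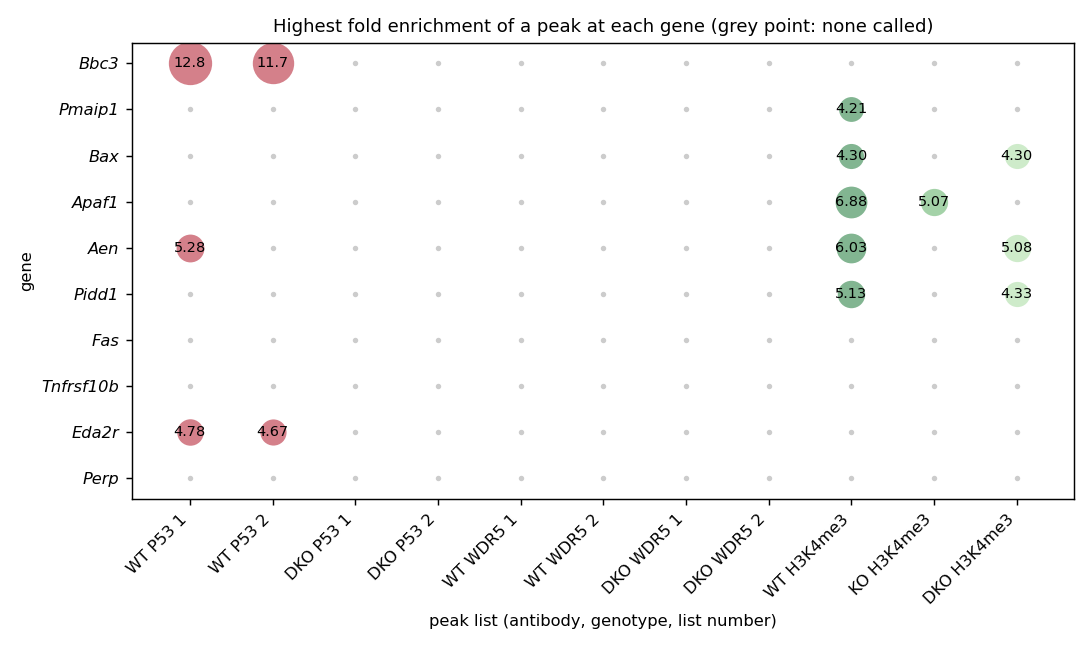
Highest fold enrichment of a peak at each gene (rows) in each of the 11 lists (columns), with circle area proportional to the value and a grey point where no peak was called. P53 circles stand at Bbc3, Aen and Eda2r in WT alone, the WDR5 columns are empty, and 5 genes have an H3K4me3 circle in WT, 1 in KO and 3 in DKO.

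Bbc3 had the highest P53 peak of the 10 genes. On chromosome 7 from 16308453 to 16309305, its fold enrichment was 12.8 in WT list 1 at a pileup of 85 fragments, and 11.7 in WT list 2 at a pileup of 68. The summit lay on base 16308798 in both. The peak ranked 23 of 396 by fold enrichment in list 1 and 29 of 294 in list 2, and was wider than most, with 853 bases in list 1 beside a median of 341. No P53 peak lay on that part of chromosome 7 in DKO: the nearest was 10341303 bases from the gene in list 1 and 10341223 in list 2. Chromosome 7 as a whole held 23 and 15 P53 peaks in WT and 1 and 2 in DKO.

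Eda2r, which encodes a receptor for the EDA-A2 form of ectodysplasin, had a low P53 peak on chromosome X. It ran from 97376690 to 97377043 in WT list 1, with a fold enrichment of 4.78 and a pileup of 18, and from 97376723 to 97377014 in list 2, with 4.67 and 16. The summit was on base 97376779 in both lists, inside the gene. The peak ranked 274 of 396 and 246 of 294, each rank shared with other peaks of the same fold enrichment. It thus stood in the lower part of each list. The 4 P53 peaks on chromosome X in each DKO list lay at least 14993527 bases from the gene.

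Aen was called in WT list 1 alone, on chromosome 7 from 78895933 to 78896185, with a fold enrichment of 5.28 and a pileup of 20. It ranked 223 of 396, a rank shared with other peaks of the same fold enrichment. This fold enrichment was above that of Eda2r in the same list, where the pileup was 18. Yet list 2 held no peak within 3324894 bases of Aen. List 2 rested on 23.9 M fragments and list 1 on 26.4 M. The lowest pileup of a called peak was 14 in both lists.

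**Figure D2:**
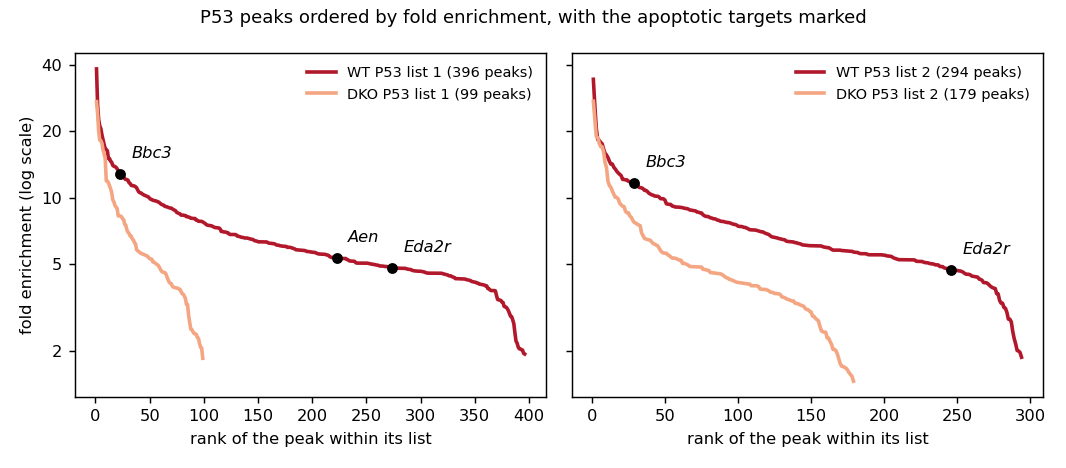
Fold enrichment (log scale) of every P53 peak against its rank within its list, for list 1 on the left and list 2 on the right, with WT in dark red and DKO in light red. Black points mark Bbc3 near the top of both WT lists (12.8 and 11.7), Eda2r in the lower part of both (4.78 and 4.67), and Aen in list 1 (5.28).

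The other 7 genes had no P53 peak nearby in WT. In list 1, the nearest peak to the span was 325894 bases away for Perp, 478532 for Tnfrsf10b, 1377585 for Fas, 3437392 for Pidd1, 4304624 for Apaf1, 7148150 for Pmaip1 and 9932700 for Bax. None of these genes was therefore close to the 5000-base limit, and the 3 genes that were called had their peak inside the span. In DKO, the nearest P53 peak to any of the 10 genes lay 191129 bases from Pidd1, in list 2. Chromosome 19, which carries Fas, had no P53 peak in either DKO list. A gene without a peak shows only that none passed the authors' cutoff at this depth.

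Sequences before the start sites were read beside the P53 peaks of the 3 genes, of which only the Aen peak overlaps the window printed for it. RefSeq promoter windows of GRCm38.p6, the assembly of mm10, were at hand for 7 of the 10 genes, and not for Pmaip1, Perp and Tnfrsf10b. The 300-base windows were searched on both strands for the p53 decamer, the 10-base consensus unit that p53 response elements hold in pairs, with no mismatch. It was found in 2 of the 7 genes, Bax and Aen (28.6%), against 9.55% of the 27025 genes in the table and 8.36% of all 32851 windows. That table is not limited to protein-coding genes, which number 17492 in it, while the 7 are all protein-coding. No test was made of these 7 genes. A pair of decamers at most 13 bases apart was sought, with at most 2 mismatches over both and each core C and G kept. Such a pair was found in Bax alone, against 4.71% of the genes in the table. The 250 bases before a start site are printed 5′ to 3′ on the strand of the gene, with an exact decamer in capitals. They are given for the 3 genes with a P53 peak and for Bax as the gene with the motif and no peak. Apaf1 is added as the gene with an H3K4me3 call in KO and none in DKO. The first of 3 listed starts was used for Bbc3 and the second of 2 for Aen.
Bbc3, chr7:16309333-16309582, plus strand: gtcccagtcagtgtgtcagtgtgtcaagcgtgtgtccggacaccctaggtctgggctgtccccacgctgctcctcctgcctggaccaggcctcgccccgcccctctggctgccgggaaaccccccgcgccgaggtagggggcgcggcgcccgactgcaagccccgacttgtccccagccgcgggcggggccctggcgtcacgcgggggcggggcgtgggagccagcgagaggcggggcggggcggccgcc
Aen, chr7:78895808-78896057, plus strand: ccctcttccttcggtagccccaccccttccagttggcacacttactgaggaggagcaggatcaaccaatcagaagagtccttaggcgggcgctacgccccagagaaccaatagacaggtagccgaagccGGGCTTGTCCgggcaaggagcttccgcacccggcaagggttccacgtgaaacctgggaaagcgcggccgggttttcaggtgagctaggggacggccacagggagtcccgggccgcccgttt
Eda2r, chrX:97377210-97377459, minus strand: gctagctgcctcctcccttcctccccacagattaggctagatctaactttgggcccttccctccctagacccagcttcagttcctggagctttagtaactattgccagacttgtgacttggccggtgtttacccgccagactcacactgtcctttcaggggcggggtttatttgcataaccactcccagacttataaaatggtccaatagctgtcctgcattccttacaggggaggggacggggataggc
Bax, chr7:45466899-45467148, minus strand: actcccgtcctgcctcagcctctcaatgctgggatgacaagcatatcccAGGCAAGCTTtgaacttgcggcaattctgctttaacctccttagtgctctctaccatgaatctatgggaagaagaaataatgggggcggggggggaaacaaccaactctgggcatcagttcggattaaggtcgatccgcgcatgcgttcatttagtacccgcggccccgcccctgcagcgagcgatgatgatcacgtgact
Apaf1, chr10:91082744-91082993, minus strand: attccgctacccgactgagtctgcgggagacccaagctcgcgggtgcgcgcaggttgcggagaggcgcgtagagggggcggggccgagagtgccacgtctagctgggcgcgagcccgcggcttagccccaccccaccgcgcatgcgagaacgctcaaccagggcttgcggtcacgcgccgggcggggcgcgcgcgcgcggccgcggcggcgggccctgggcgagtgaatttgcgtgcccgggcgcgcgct

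In Aen, the decamer GGGCTTGTCC lies at 78895937 to 78895946, inside the P53 peak of WT list 1. It begins 10 bases after the first of the 2 start sites listed for Aen and 121 bases before the second. The Bbc3 window starts 28 bases beyond the end of the P53 peak of list 1 and holds no exact decamer, so the bases under the Bbc3 summit are not in it. Likewise the Eda2r peak lies inside the gene, 166 bases from the listed start at its nearer edge, and outside the printed window. In Bax, the decamer AGGCAAGCTT lies at 45467090 to 45467099, with its first base 201 bases before the start site, and no P53 list had a peak within 5000 bases of the gene. A match in these letters describes the sequence and not binding, and the absence of a match says only that the letters are not in the window.

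WDR5 was called at none of the 10 genes in any of its 4 lists. The share of all genes was 3.76% in WT list 1, 2.29% in WT list 2, 1.04% in DKO list 1 and 0.685% in DKO list 2, so 0 of 10 is the usual count in each. The nearest WDR5 peak was 27041 bases from Bax in the WT lists and 26980 in the DKO lists, at an end of Gys1, which encodes muscle glycogen synthase. It was called in both genotypes, with a fold enrichment of 5.91 and 6.03 in the WT lists and 7.21 and 7.50 in the DKO lists. In WT list 1, Pidd1 and Bbc3 followed at 45666 and 46736 bases, and the other 7 genes lay at least 361756 bases from a WDR5 peak.

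H3K4me3 in WT was called at an end of 5 of the 10 genes, beside 35.5% of all genes. They were the exonuclease gene Aen, the apoptosome gene Apaf1, Bax, Pmaip1 and Pidd1. In KO, 1 of the 10 was called, Apaf1, beside 3.2% of all genes, and in DKO 3 were called, Bax, Aen and Pidd1, beside 22.8%. Of the 5 genes called in WT, 1 was thus also called in KO and 3 in DKO, where the shares of all genes called in WT were 8.98% and 59.8%. Pmaip1 was called in neither, as were 39.7% of all genes called in WT. These counts are near the background, given 5 genes. The KO library was the shallowest H3K4me3 library, with 22.3 M fragments against 34.2 M in WT and 43.2 M in DKO, and the part of depth in these counts was not tested.

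The heights of the marked genes spread over the range of all genes. In WT, the highest fold enrichment was 6.88 at Apaf1, 6.03 at Aen, 5.13 at Pidd1, 4.30 at Bax and 4.21 at Pmaip1. Apaf1 stood above 94.3% of the 7762 genes called in WT, Bax above 33.8% and Pmaip1 above 30.6%. The median over the 5 was 5.13, beside 4.72 over all genes called. In DKO the 3 genes had 5.08 at Aen, 4.33 at Pidd1 and 4.30 at Bax, with a median of 4.33 beside 4.03, and in KO Apaf1 had 5.07 beside a median of 4.60.

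**Figure D3:**
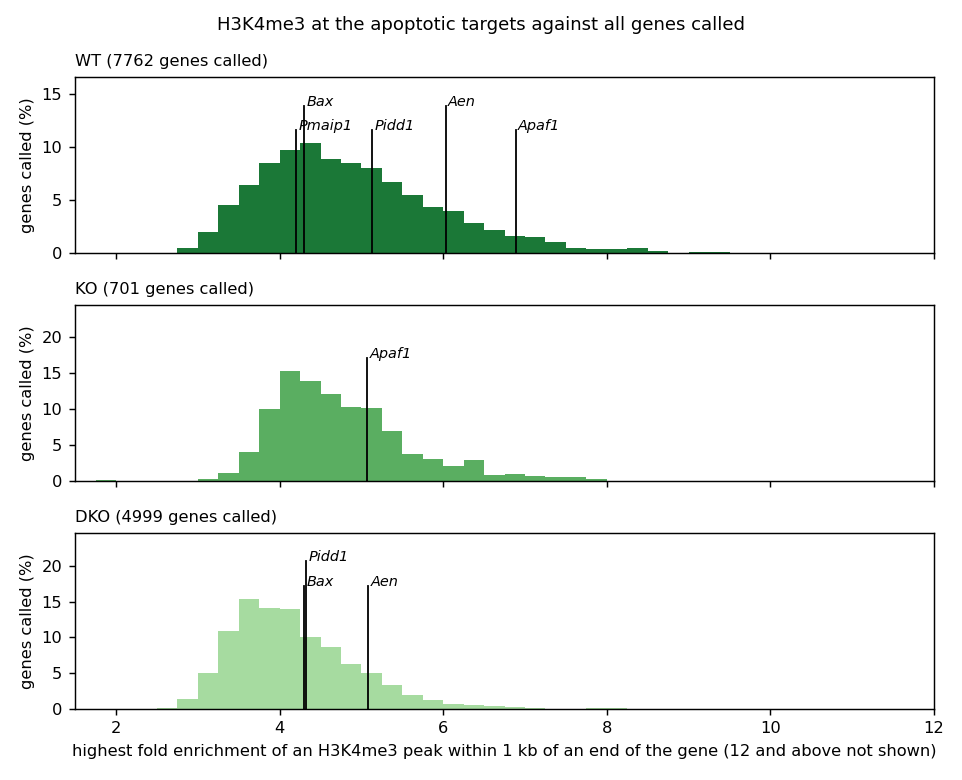
Distribution of the highest H3K4me3 fold enrichment within 1 kb of a gene end over all genes called in WT, KO and DKO (bars, percent of genes called), with the apoptotic targets as vertical lines. In WT, Apaf1 (6.88) and Aen (6.03) stand in the upper tail, while Pmaip1 (4.21) and Bax (4.30) stand below the median of 4.72.

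Apaf1 was the gene called in KO and not in DKO. Its WT peak ran from 91082093 to 91082698 on chromosome 10, inside the gene and 45 bases from the start site, with a pileup of 48. The KO peak, from 91082278 to 91082576, lay within it, at a pileup of 20. No DKO H3K4me3 peak was called within 30000 bases of Apaf1. The DKO library had the most fragments of the 3, and its median fold enrichment over all peaks was 3.88, against 4.42 in WT. The part of either in this missing call was not tested. Of the 7762 genes called in WT, 40 (0.515%) were called in KO and not in DKO, and 51.3% in DKO and not in KO. Ikbip also has an end within 1000 bases of these peaks, so the mark there cannot be assigned to Apaf1 alone.

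Bax, Aen and Pidd1 had the opposite pattern, with a call in WT and DKO and none in KO. At Aen the peak ran from 78895919 to 78896734 in both WT and DKO, over both listed start sites, with a pileup of 34 and 28. At Bax it began 729 bases from the gene's end in WT, with 356 bases, and 342 bases from it in DKO, with 743 bases, while the fold enrichment was 4.30 in both. At Pidd1, the WT peak of 1292 bases over the end of the span was called as 2 peaks of 227 and 703 bases in DKO, with 3.80 and 4.33. Rplp2, which encodes a ribosomal stalk protein, has an end within 1000 bases of all of these Pidd1 peaks, and a further WT peak of 4.36 at the other end of Pidd1 is shared in the same way with Slc25a22. The listed start site of Pidd1 lies 3540 bases inside the span, and a WT peak of 3.86 lay 30 bases from it, without a counterpart in KO or DKO. Pmaip1 had a WT peak of 873 bases that began 83 bases from the end of its span, with 4.21 and a pileup of 28, and no peak within 30000 bases in KO or DKO.

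Bbc3 just missed the window for H3K4me3 at the gene ends. Its WT peak, from 16309629 to 16310096, lay 1231 bases from the end of the span, with a fold enrichment of 6.55 and a pileup of 49, which put it at rank 649 of 9836. The nearest member inside the limit was Bax, at 729 bases. By start site, the Bbc3 peak was adjacent, since the first of its 3 listed starts lies 1185 bases inside the span and the peak began 46 bases from it. DKO held the corresponding peak, from 16309636 to 16310039, with 4.90 and a pileup of 27, and KO held none within 30000 bases. A second peak farther inside Bbc3 was likewise called in WT (4.34) and DKO (3.74). With a window of 1000 bases around listed start sites, 5 of the 7 genes with an entry were called in WT (38.3% of all genes with an entry), 1 in KO (3.46%) and 3 in DKO (24.9%).

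**Figure D4:**
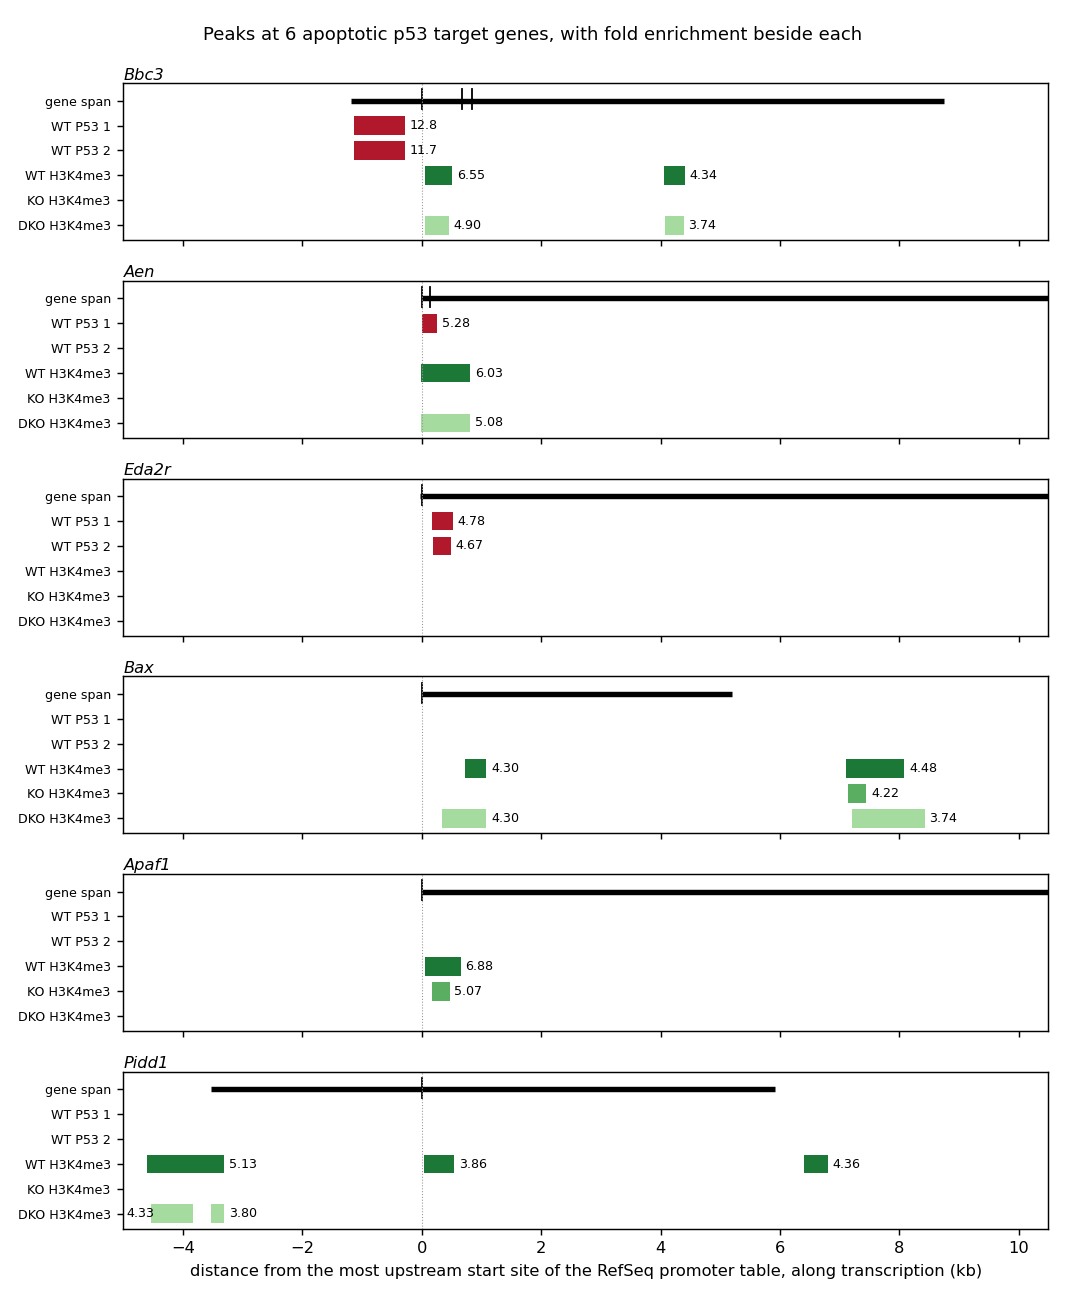
Peaks at 6 of the genes, plotted by distance in kb from the most upstream start site of the RefSeq promoter table, with transcription to the right. The black bar is the gene span, ticks are listed start sites, coloured bars are peaks, and the number beside each is its fold enrichment. At Bbc3 the P53 peak lies before the first listed start and H3K4me3 after it, at Aen they overlap, and at Eda2r P53 stands without H3K4me3. The WDR5 and DKO P53 lists had no peak in these ranges.

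P53 and H3K4me3 were arranged differently at the 3 genes with P53. At Bbc3 the P53 peak of list 1 ended 324 bases before the WT H3K4me3 peak, and the summits were 1053 bases apart. At Aen the P53 summit lay inside the H3K4me3 peak of WT and also inside that of DKO. Around the Eda2r P53 peak, the nearest H3K4me3 peak was 1279329 bases away in WT, 3164178 in KO and 117507 in DKO. Of the 198 genes with a P53 peak in WT list 1, 36.9% had H3K4me3 at an end in WT, and of the 122 with a peak in both lists 44.3%. Aen was among the former, and neither Bbc3 nor Eda2r was among either.

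The genes can be split by where their products act, a split made after the values were seen. The receptor genes Fas, Tnfrsf10b and Eda2r and the membrane protein gene Perp had no H3K4me3 peak at a gene end in WT, KO or DKO. Of all genes, 35.5%, 3.2% and 22.8% had such a peak. These 4 genes also had none within 30000 bases of the span, a range for which no share of all genes was computed. Of the 6 genes for intracellular proteins, all but Bbc3 had an H3K4me3 peak at a gene end in WT, 1 in KO and 3 in DKO, beside the same shares. The WT Bbc3 peak lay 1231 bases from the end, just outside the window. At Apaf1 and Pidd1, the peaks at the gene ends also lie at ends of other genes. No test was made of these 4 and 6 genes, and no difference between them is claimed.

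Other genes of the pathway were read in 4 lists with 61 genes, which were likewise chosen with earlier results of these data known. In the list of 20 other p53 targets, P53 was called in both WT lists at Plk2, a polo-like kinase gene (7.79 and 7.36), Zmat3, an RNA-binding zinc finger gene (8.95 and 8.35), and Dyrk3, a kinase gene (8.29 and 7.89). Their fold enrichment lay between those of Bbc3 and Eda2r. These 3 of 20 stand beside 0.557% of all genes. In WT list 1 the count was 5, beside 0.905% of all genes. The further 2, called in list 1 alone and named after their values were seen, were Cdkn1a, the cell cycle inhibitor gene (4.76), and Trp53inp1 (4.45). None of the 12 genes of the BCL2 family, the 17 genes of caspases and their regulators and the 12 genes of death receptor signalling had a P53 peak in any list, which is the usual count at this background.

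H3K4me3 was called in WT at 16 of the 20 other p53 targets, 6 of 12 BCL2 family genes, 11 of 17 caspase genes and 2 of 12 death receptor genes. The corresponding counts in KO were 6, 0, 2 and 0, and in DKO 10, 5, 8 and 5. Of all genes, 35.5% were called in WT, 3.2% in KO and 22.8% in DKO, so 0 of 12 is the usual count in KO. No list was tested against these shares. The highest KO values among the other p53 targets were at Mdm2, the ubiquitin ligase gene for P53 (5.08), Phlda3, an AKT inhibitor gene (4.36), and Sesn2, a sestrin gene (4.27). The 2 caspase list genes called in KO were Cycs, which encodes the cytochrome c that APAF1 binds (4.59), and Birc5, which encodes survivin (4.59). Apaf1, at 5.07, was thus within the range of the marked pathway genes in KO.

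**Figure D5:**
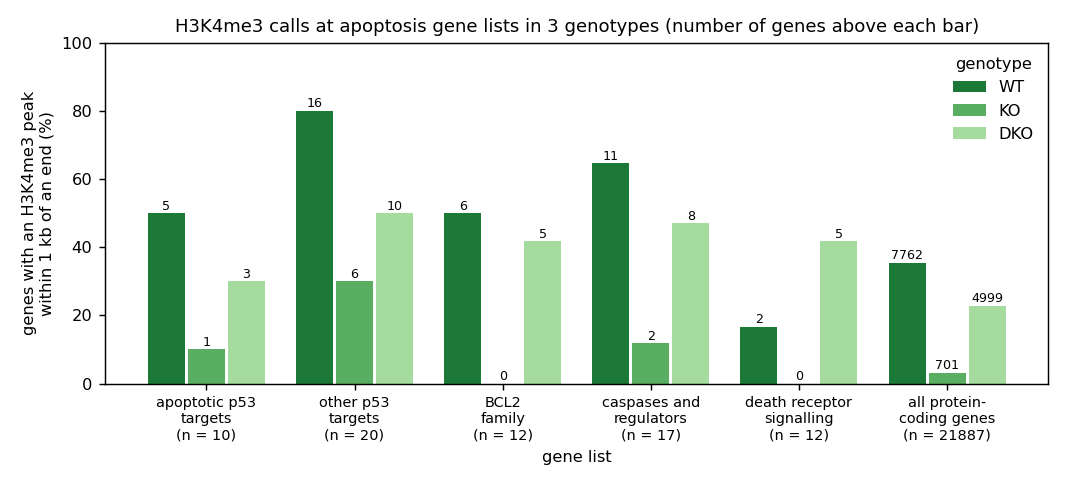
Share of genes with an H3K4me3 peak within 1 kb of an end, in percent, for the apoptotic p53 targets, 4 other lists and all protein-coding genes, in WT, KO and DKO, with the number of genes above each bar. The apoptotic targets stand at 50%, 10% and 30%, beside 35.5%, 3.2% and 22.8% of all genes.

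WDR5 was called in WT at 1 of the BCL2 family genes in both lists, Bcl2l1, which encodes the survival protein BCL-XL (4.21 and 4.46). In list 1 alone it was also called at Mcl1, another survival gene of the family (4.28), and at Cycs (4.39). Sesn1 was the other p53 target with a WDR5 peak (6.47 and 5.88). Of all genes, 3.76% had a WDR5 peak in WT list 1, 2.29% in WT list 2 and 2.26% in both. None of these 4 genes had a WDR5 call in DKO, beside 1.04% and 0.685% of all genes in its lists. At that background, no call among 4 genes is the usual outcome. The 4 genes were picked for mention once their values had been seen.

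The genes most like Bbc3 in pattern were sought among all protein-coding genes, as those with P53 in both WT lists, in neither DKO list, and no WDR5 peak in any of 4 lists. There were 84, and Bbc3 was the sixth by fold enrichment in list 1. Ahead of it were Cemip2, a hyaluronidase gene (15.0 and 14.2 in the 2 lists), Mtmr10, a myotubularin-related gene (14.5 and 13.5), Zfp809, a gene for silencing of retroviruses (13.8 and 13.2), Npl, a sialic acid lyase gene (13.7 and 12.9), and Rims1, a gene of synaptic vesicle release (13.2 and 11.9). Eda2r was at place 77 of the 84.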

How the data were processed

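CUT&RUN peak lists of P53, WDR5 and H3K4me3 were analysed, 11 in all. Per the file headers, the authors ran MACS 2.1.2 or 2.1.0.20150731 in paired-end mode. There was no control library, the q cutoff was 0.01, the regional background spanned 10000 bases, and up to 2 fragments were kept at each position. The submitters' processing notes also name Bowtie2, SAMtools 1.5, bedtools, HOMER 4.10 and mm10, with no role for each. Per the file headers, pileup is a coverage signal in fragments, and it was not adjusted for depth. Fold enrichment, a ratio of pileup to estimated background within a library, and the −log10 of the p-value and q-value were deposited by the authors. Regions of high background can be called when no control is used, and deeper libraries can give more peaks.

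Peaks outside chromosomes 1 to 19, X and Y, 35 in number, were left out. Gene spans came from RefSeq for GRCm38.p6. Distances run from the nearer edge of a peak. Scripts used Python 3.11.15, pandas 2.3.3 and matplotlib 3.10.9, and the assignment of peaks to genes was tested on simulated data. All 10 genes are described. From the other lists, genes with P53 in both WT lists and the 3 per list with the highest KO H3K4me3 were named, beside the 5 genes most like Bbc3. The members and lists were chosen with earlier results of these data known. Alternatives were windows, stricter cutoffs, shorter lists and single lists. No test between genotypes was made.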

Additional observations from a re-analysis of the deposited data

How the results depend on the processing

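No paired analysis was possible because the results come from no test. Of 80 counts of genes under an alternative, 67 stayed within 1.5 times the reported count. This compares the number of genes and not which genes were called. The 67 include reported counts of 0, which could not rise under a narrower window, a stricter cutoff or a shorter list. The 2 genes with P53 in both WT lists, also absent from DKO, became 1 (Bbc3) in the top 50% of each list and 1 with lists of equal length (99 peaks), since Eda2r ranked below. From list 1 alone there were 3 and from list 2 alone 2. The counts of P53 in DKO and of WDR5 in WT and DKO were 0 under all alternatives. Only the window of 10000 bases and calls in a single or in either list could have raised them. For H3K4me3, a peak overlapping an end was called at 2 genes in WT, at 0 in KO and thus at 0 in WT and KO. Within 5000 bases of an end, 2 were called in KO and 2 in both WT and KO, where the peak near Bax is also at an end of Ftl1. The top 50% of each list left 3 genes in WT. Lists of equal length (918 peaks) left 1 in WT (Apaf1), 1 in DKO (Aen) and 0 in both WT and DKO, while KO, whose list is the shortest, kept 1 by construction. Start sites as the window were chosen after the data were seen. They gave 5 genes in WT and 3 in DKO as before, but not the same ones. Bbc3 took the place of Pmaip1, which has no listed start, in WT and of Pidd1 in DKO. KO H3K4me3 had 22.3 M fragments against 34.2 M in WT, so a lost peak and a shallower library cannot be told apart there. DKO was deeper than WT for H3K4me3 (43.2 M) and for P53 (32.8 M and 57.5 M against 26.4 M and 23.9 M).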

Other observations

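At the WT H3K4me3 peaks within 30000 bases of the apoptotic genes lay the ends of 13 other genes. Of these, 4 were called in KO (Ftl1, Polr2l, Tspan4 and Ikbip, which shares its peak with Apaf1) and 8 in DKO, beside 8.98% and 59.8% of all genes called in WT. The genes described next were chosen after their values were seen. At Ftl1, the ferritin light chain gene next to Bax, the fold enrichment was 4.48 in WT, 4.22 in KO and 3.74 in DKO, while the Bax peak was not called in KO. At the shared ends of Polr2l, an RNA polymerase subunit gene, and Tspan4, 26983 bases from Pidd1 in WT, it was 6.72, 7.42 and 5.57.

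In DKO, H3K4me3 was called at 3 death receptor signalling genes that had no call in WT, namely Tradd (3.57), Cflar, which encodes the caspase 8 inhibitor c-FLIP (3.47), and Cradd (3.91), and at Birc3 (3.61) of the caspase list and Tigar (3.92) of the other p53 targets. Of the 14125 genes without a WT call, 2.56% were called in DKO, and none of the 5 unmarked apoptotic targets was. Their choice followed the values.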
